A study of Caenorhabditis elegans with 6 samples.

Results

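The *Caenorhabditis elegans* gene *yrn-1* (transcript F55G1.16) encodes the only Y RNA listed in a table of short RNAs, and its row was taken by that transcript name, 1 transcript of 2526. Short RNA was sequenced from whole adult worms on day 2 of adulthood, which had been fed from the L4 stage bacteria with an empty RNAi plasmid in 3 samples (vector control) and bacteria carrying RNAi against *rpc-1* in the other 3. *rpc-1* encodes the biggest subunit of the enzyme RNA polymerase III (Pol III), and feeding RNAi lowers its mRNA only in part. Worms of both groups were handled as in the study's lifespan assays, whose plates held the drug FuDR unless stated otherwise. RNAs under 200 nucleotides were selected and demethylated before the libraries were made, and no mRNA level of *rpc-1* was analysed here. The question was whether a Y RNA follows the tRNAs or the other Pol III transcripts when the polymerase is partly depleted.

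Y RNAs are short noncoding RNAs that fold back into a stem with a loop, and Pol III makes them. They bind the ring-shaped protein Ro60, called ROP-1 in the worm, which holds misfolded small RNAs and is known for a part in RNA quality control. In vertebrates, Y RNAs are also known as factors in the start of DNA replication. RNase P RNA (*rpr-1*), which is part of the enzyme that trims the front end of precursor tRNAs, and RNase MRP RNA (*mrpr-1*), which is part of a related enzyme that cuts precursor ribosomal RNA, are Pol III RNAs that likewise have 1 transcript each in the table.

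The *yrn-1* RNA is 105 bases long and lies on the plus strand of chromosome IV, at 7499508 to 7499612 of WBcel235 in the Ensembl annotation. It sits whole inside 1 intron of the protein-coding gene F55G1.15, which runs on the minus strand. The intron is 281 bases long, at 7499386 to 7499666, so *yrn-1* overlaps no exon of that gene. A second short ncRNA in the table, F55G1.20, is annotated on the minus strand at 7499419 to 7499643 and covers all 105 bases of *yrn-1*. Of the 10 annotated transcripts, itself included, that overlap *yrn-1* or lie within 10000 bases of it, *yrn-1* and F55G1.20 were the only ones in the table.

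The counts in the table summed to between 9362216 and 21685824 per sample. Vector control replicate 2 was the shallowest, and the other 5 samples had at least 18108863 counts. Control and RNAi samples that carry one number in their titles varied together, more in pairs 1 and 3 than in pair 2. The values below are therefore given both over the groups and within same-numbered samples. Nothing in the labels says whether samples came from separate cultures, so p-values measure only the spread between these samples.

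*yrn-1* was lower in the *rpc-1* RNAi sample of every same-numbered pair. Its counts were 10384, 2771 and 10413 in vector control replicates 1, 2 and 3, and 6066, 4145 and 8268 in *rpc-1* RNAi replicates 1, 2 and 3. Scaled to a table total of 1000000 counts in each sample (CPM), its level was 573.4, 296.0 and 563.9 in the vector controls and 312.9, 207.1 and 381.3 in the RNAi samples. Replicate 2 had the lowest level in both groups, and vector control replicate 2 lay below RNAi replicates 1 and 3, so the groups overlapped.

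Over vector controls the mean level was 478 ± 158 CPM (SD, n = 3), and over *rpc-1* RNAi samples it was 300.4 ± 87.8 (SD, n = 3). The difference of -177.4 CPM was close to the spread among the controls, with an exact two-sided permutation p of 0.30 over 20 labelings, the smallest possible being 0.10. Without vector control replicate 2, the control behind the overlap, the groups no longer overlapped. The ratio of the means then moved from 0.629 to 0.528, with an exact permutation p of 0.10. Leaving out any other sample kept the overlap, with ratios from 0.544 to 0.726 and exact permutation p-values from 0.30 to 0.50.

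Within pairs 1, 2 and 3 the RNAi level was 0.546, 0.700 and 0.676 of the control level in CPM. With counts scaled by the size factors of DESeq2 the ratios were 0.519, 0.570 and 0.615, and with TMM factors of edgeR 0.569, 0.593 and 0.555. The scaling thus moved each ratio but left all of them below 1. The exact two-sided sign-flip p over the 3 pairs was 0.25, the smallest that 3 pairs allow. A level lower in all 3 pairs was not rare here, since 171 of 817 transcripts (20.9%) whose normalized count averaged at least 10 showed it in CPM, and 25.1% with size factors. Because whole worms were sampled, fewer cells that make the RNA and less RNA per cell cannot be told apart.

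**Figure D1:**
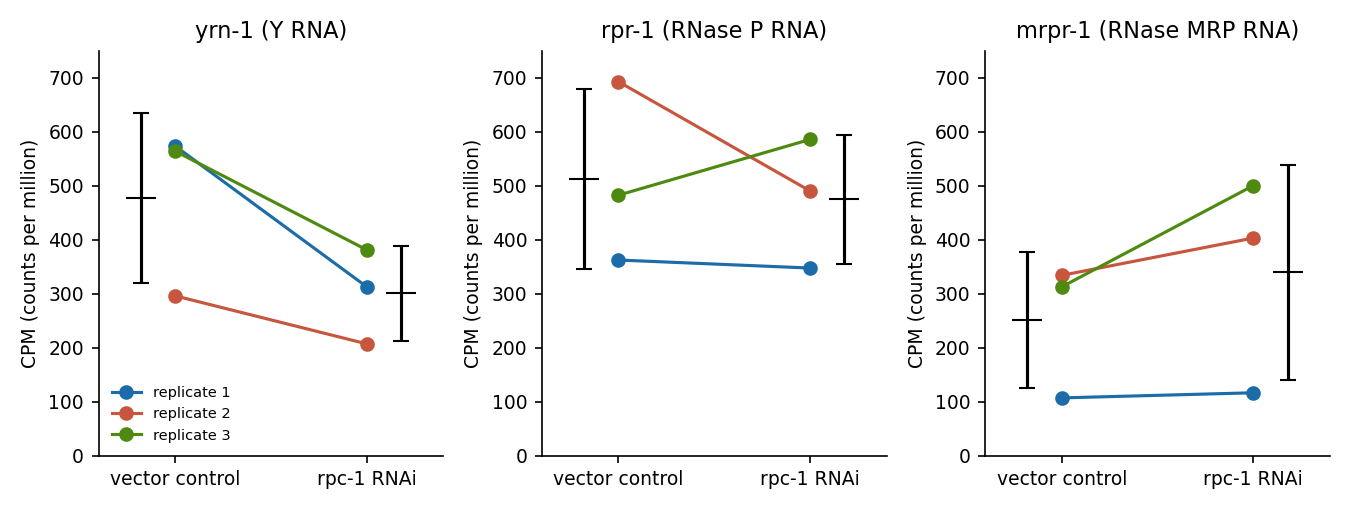
CPM of *yrn-1*, *rpr-1* and *mrpr-1* in each sample, with lines joining samples of the same replicate number and black bars showing the mean and SD of 3 samples. All 3 lines point down for *yrn-1*, from 573.4, 296.0 and 563.9 to 312.9, 207.1 and 381.3, whereas those of *rpr-1* are mixed and those of *mrpr-1* point up in CPM (with size factors pair 2 was at 0.983).

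Whether the lower level of *yrn-1* passed a test across all transcripts depended on whether the replicate number was in the model. With the group as the only term, DESeq2 gave *yrn-1* a log2 fold change of -0.82 ± 0.65 (SE), a 95% confidence interval from -2.10 to 0.46, and an adjusted p of 0.82. It was not among the calls at 10% FDR, which were 79 of 1083 transcripts (7.29%), 45 of them lower (4.16%). With the replicate block in the model the log2 fold change was again -0.82, but its SE was 0.18, the interval ran from -1.18 to -0.46 and the DESeq2 adjusted p was 8.33e-05. The block widened the calls in general, to 278 of 959 transcripts (29.0%), of which 143 were lower (14.9%).

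edgeR placed *yrn-1* at -0.79 on the log2 scale with an adjusted p of 0.54 without the block, where it called 30 of 796 transcripts lower (3.77%). With the block it gave -0.80 and an adjusted p of 0.12, so that the call of the paired DESeq2 fit was not made in edgeR, which called 81 of 796 transcripts lower (10.2%) in that fit. The size of the change was therefore alike in both tools, and the call was not. Leaving out pair 1, 2 or 3 from the paired DESeq2 fit gave -0.80, -0.81 and -0.91, with DESeq2 adjusted p values of 0.0047, 0.00412 and 0.0165.

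**Figure D2:**
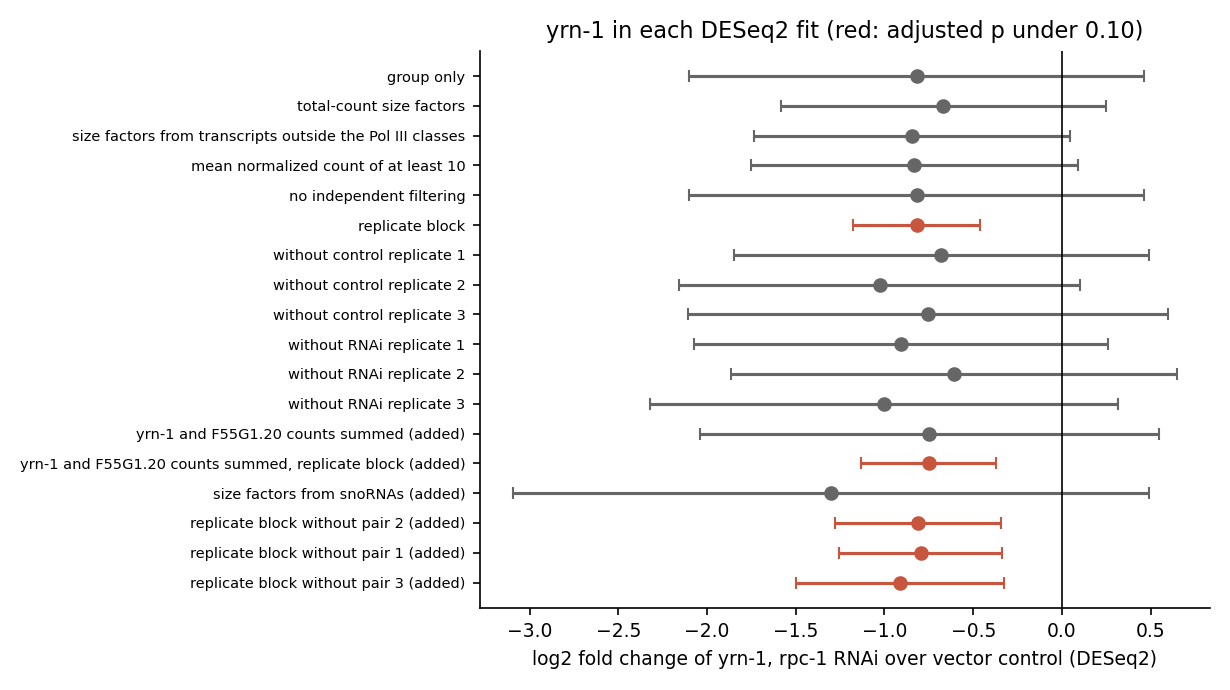
Log2 fold change of *yrn-1* (*rpc-1* RNAi over vector control, horizontal axis) with its 95% confidence interval in each DESeq2 fit, and in red the fits with an adjusted p under 0.10. All estimates lie below 0, and only the fits with the replicate block have intervals that leave out 0, such as -1.18 to -0.46 with all 3 pairs.

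A difference of this size was common among abundant short RNAs. Of 638 transcripts whose normalized count averaged at least 100, 147 (23.0%) had a log2 fold change as low as that of *yrn-1* or lower in the fit without the block, and the median was -0.10. *yrn-1* itself was well covered, with a mean normalized count of 6553, and 152 transcripts of the table were more abundant.

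In CPM, the levels of *yrn-1*, *rpr-1* and *mrpr-1* did not change in the same direction in every pair. RNase P RNA (*rpr-1*, transcript Y48G10A.7, chromosome I) had levels of 362.4, 692.7 and 482.5 CPM in vector control replicates 1, 2 and 3, and 347.5, 490.4 and 585.7 in the RNAi samples. The RNAi level of *rpr-1* was 0.959, 0.708 and 1.21 of the control level in pairs 1, 2 and 3, so it was clearly below control only in pair 2. With size factors these ratios were 0.913, 0.577 and 1.10, and *yrn-1* was at 0.570 in pair 2. Its log2 fold change was -0.30 ± 0.65 (SE) without the block (DESeq2 adjusted p 0.99) and -0.26 ± 0.32 (SE) with it (DESeq2 adjusted p 0.64).

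RNase MRP RNA (*mrpr-1*, transcript E04F6.16, chromosome II) had levels of 107.0, 334.0 and 312.7 CPM in the vector controls and 116.5, 403.1 and 500.1 in the RNAi samples. Replicate 1 was the low one in both groups, whereas for *yrn-1* it was replicate 2. The ratios of *mrpr-1* within pairs were 1.09, 1.21 and 1.60 in CPM, but with size factors pair 2 was at 0.983. DESeq2 put *mrpr-1* at 0.24 ± 0.82 (SE) without the block (adjusted p 0.99) and 0.19 ± 0.25 (SE) with it (adjusted p 0.68).

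Ratios between RNAs of the same sample need no size factor, and these set *yrn-1* against its peers directly. The count of *yrn-1* divided by that of *rpr-1* was 1.58, 0.427 and 1.17 in vector control replicates 1, 2 and 3, and 0.900, 0.422 and 0.651 in the RNAi replicates. The ratio was at 0.569 and 0.557 of its control value in pairs 1 and 3, and at 0.988 in pair 2, where *rpr-1* was lower too. The mean difference was -0.56 on the log2 scale (exact two-sided permutation p 0.40 over the groups). Leaving out vector control replicate 1 moved it to -0.17, and leaving out vector control replicate 2 moved it to -1.12, so its size rested on single samples.

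Against *mrpr-1* the ratio of *yrn-1* counts was 5.36, 0.886 and 1.80 in the vector controls and 2.69, 0.514 and 0.762 in the RNAi samples. It was lower in all 3 pairs, at 0.501, 0.580 and 0.423 of the control value. The differences within pairs were alike, with a mean of -1.01 ± 0.23 on the log2 scale (SD, 3 pairs), although the samples of a group differed more than the groups did (exact two-sided permutation p 0.40). This difference too depended on single samples over the groups, from -1.71 without *rpc-1* RNAi replicate 1 to -0.31 without vector control replicate 1.

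Per length, *yrn-1* was the most abundant of the 3 in mean level. Its level in the controls was 4550 ± 1500.2 CPM per kilobase (SD, n = 3), against 2026 ± 661 (SD, n = 3) for *rpr-1* and 1351 ± 674 (SD, n = 3) for *mrpr-1*. In *rpc-1* RNAi these levels were 2861 ± 836 for *yrn-1*, 1876 ± 474 for *rpr-1* and 1827 ± 1072 for *mrpr-1* (SD, n = 3 each). In vector controls the lowest *yrn-1* value of 2819 was above the highest *rpr-1* value of 2738, whereas the ranges overlapped in RNAi, and *rpr-1* and *mrpr-1* overlapped in both groups. *rpr-1* is 253 bases long and *mrpr-1* 186, so the selection for RNAs under 200 nucleotides may bear on these levels, and its part was not tested. The order also depended on the division by length. In CPM alone the control means were 477.8 for *yrn-1*, 512.5 for *rpr-1* and 251.2 for *mrpr-1*. In *rpc-1* RNAi they were 300.4, 474.5 and 339.9.

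Summed classes of Pol III RNAs stood on both sides of *yrn-1*. 7SL RNA is the scaffold of the signal recognition particle, which brings ribosomes to the endoplasmic reticulum, and its 3 transcripts were summed. The ratio of *yrn-1* to this sum was at 0.427, 0.869 and 0.595 of its control value in pairs 1, 2 and 3. 5S rRNA is a part of the large ribosomal subunit, and its 5 transcripts were summed because near-identical copies share reads. The ratio to 5S was at 0.404, 0.610 and 0.613. Against nuclear tRNAs, the adaptors of translation, the sign was the opposite, and the ratio of *yrn-1* to the sum of 143 tRNA transcripts was 4.82, 1.90 and 6.93 times its control value in pairs 1, 2 and 3. That sum is weighted to a few abundant tRNAs, since 3 transcripts held 40.5% to 56.6% of it in the vector controls, and it does not stand for the typical tRNA. Some abundant members had no counts left, such as C52G5.t1, with 256068, 12176 and 35185 in the vector controls and 0 in every RNAi sample. Others kept counts, such as C49F5.t1, with 85815, 9275 and 8176 in the RNAi samples. Whether the assignment of reads had a part in such losses was not tested. The ratio to tRNAs was the only one without overlap between the groups (exact two-sided permutation p 0.10, the smallest possible).

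RNAs that Pol III mostly does not make gave the same sign as 7SL and 5S. Relative to the sum of 61 snRNA transcripts, which includes spliced leader RNAs and in which U6, a Pol III transcript, was not told apart, *yrn-1* was at 0.514, 0.659 and 0.568 of control in pairs 1, 2 and 3. Relative to 196 snoRNA transcripts, guides of RNA modification that include some made by Pol III, it was at 0.364, 0.561 and 0.597. Relative to 5.8S rRNA, a Pol I product, it was at 0.521, 0.706 and 0.769. Over the 8 ratios compared, all 7 other than that to tRNAs were lower in each of the 3 pairs, but they share the *yrn-1* counts and are not independent. The exact permutation p-values over the groups ran from 0.10 to 0.60, and from 0.40 to 0.60 after Benjamini-Hochberg adjustment over the 8.

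**Figure D3:**
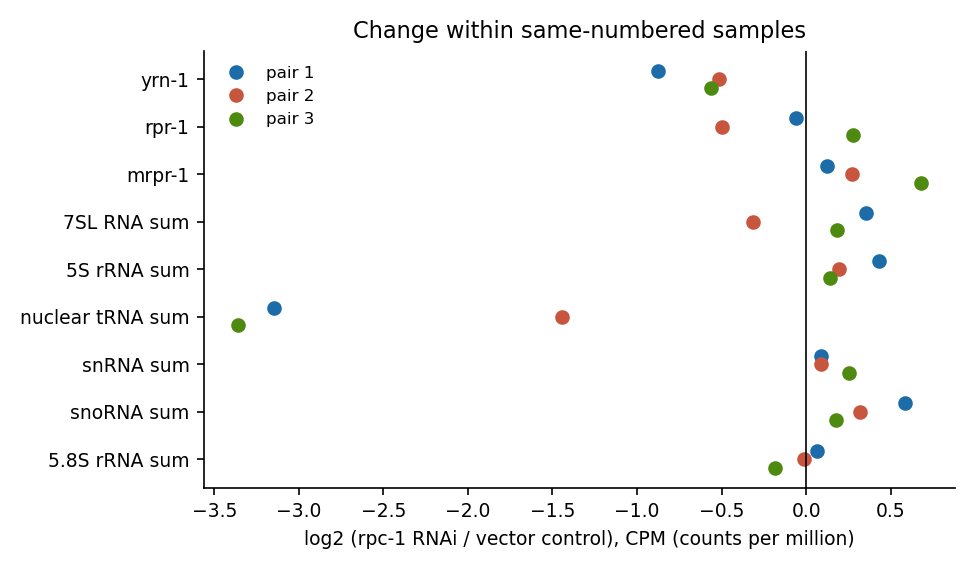
Log2 ratio of *rpc-1* RNAi to vector control within each same-numbered pair, in CPM, for *yrn-1*, *rpr-1*, *mrpr-1* and the summed classes. The 3 points of *yrn-1* (ratios 0.546, 0.700 and 0.676) lie left of 0, further left than most classes and right of the nuclear tRNA sum.

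Of the 11 transcripts in the Y RNA, RNase P, RNase MRP, 7SL and 5S classes, *yrn-1* was the only one that the paired DESeq2 fit called lower (1 of 11, against 14.9% of all transcripts tested there). The same fit called 2 of the 5 5S transcripts higher (14.1% of all tested were called higher) and no 7SL, *rpr-1* or *mrpr-1* transcript in either direction. Without the block the number called was 0 in DESeq2, of 10 tested, and 0 in edgeR, of 11 tested. In each tool 1 transcript had an unadjusted p under 0.05. Among nuclear tRNAs with an adjusted p, 26 of 126 were called lower and 9 higher by DESeq2 without the block, where 4.16% of all transcripts tested were called lower and 3.14% higher, with a median log2 fold change of -0.66 against 0.00 over all 1083 transcripts. The log2 fold change of *yrn-1* lay near the tRNA median, which was less negative than its own value of -0.82. This order rested on single samples. Without *rpc-1* RNAi replicate 1 the tRNA median was -1.50 and *yrn-1* was at -0.91. Without vector control replicate 3 the values were -0.84 and -0.75. The order stayed when any other sample was left out.

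F55G1.20, the ncRNA annotated opposite *yrn-1*, was higher in every *rpc-1* RNAi sample than in every vector control, which held for 106 of 817 transcripts (13.0%). Nothing of its function is given in the annotation. Its counts were 20, 8 and 16 in vector control replicates 1, 2 and 3 and 178, 187 and 608 in the RNAi replicates. DESeq2 gave F55G1.20 a log2 fold change of 3.86 ± 0.79 (SE, adjusted p 3.04e-05) without the block and 3.68 ± 0.66 (SE, adjusted p 3.39e-07) with it, and edgeR gave 3.87 (adjusted p 0.0123). Calls in this direction were 34 of 1083 transcripts (3.14%) in DESeq2 without the block and 27 of 796 (3.39%) in edgeR. Replicate 3 had the largest RNAi count, and without it the log2 fold change was 3.14.

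In vector control replicates 1, 2 and 3, F55G1.20 took 0.192% (Wilson 95% limits 0.124 and 0.297), 0.288% (limits 0.146 and 0.567) and 0.153% (limits 0.0945 and 0.249) of the counts at the locus. In the RNAi replicates it took 2.85% (limits 2.47 and 3.29), 4.32% (limits 3.75 and 4.96) and 6.85% (limits 6.34 and 7.39). Vector controls averaged 0.211% ± 0.0692 (SD, n = 3), whereas the RNAi samples averaged 4.67% ± 2.02 (SD, n = 3), and no control value reached the lowest RNAi value (exact two-sided permutation p 0.10, the smallest possible). These limits reflect counting error alone, because PCR copies of a read are not separate molecules.

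Whether the reads were assigned by strand is not given in the sources used here, so counts of *yrn-1* and of F55G1.20 cannot be told apart with certainty. The counts as assigned moved in opposite directions and by unequal amounts. F55G1.20 gained 225.7 normalized counts on average and *yrn-1* fell by 3623, so the gain was 6.23% of the loss. With both counts added, the level was 0.561, 0.729 and 0.725 of control in pairs 1, 2 and 3, and DESeq2 gave a log2 fold change of -0.75 with an adjusted p of 0.88 without the block and 0.000912 with it.

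The less abundant strand had a larger share in RNAi at some other loci, and a smaller one at others. Of 84 pairs of transcripts in the table that overlapped on opposite strands by at least 40 bases and had together an average normalized count of at least 100, the less abundant member took a higher share in every RNAi sample than in every control at 24 (28.6%), the *yrn-1* locus among them, and a lower share at 9 (10.7%). Of the 22 pairs whose more abundant member was a nuclear tRNA, 10 had the higher share and 0 the lower. Of the 38 pairs without a nuclear tRNA, 12 had the higher share (31.6%) and 4 the lower (10.5%). Over all 84 pairs the median share of the less abundant member was 12.1% in vector controls and 7.24% in RNAi. That median also holds the remaining pairs, in which the less abundant member was itself a nuclear tRNA. It therefore does not describe the opposite strand alone. The mean share of the less abundant member lay within 5 points of 50% at 6 pairs in RNAi and at 5 in vector controls. For F52H3.10, opposite F52H3.9, it was 12.2%, 12.2% and 1.53% in vector control replicates 1, 2 and 3. In the RNAi replicates it was 50.0%, 50.1% and 50.0%. Whether the groups differed in how reads were divided between strands, at these loci or at that of *yrn-1*, was not tested. None of the 84 pairs held an *rpr-1*, *mrpr-1*, 7SL or 5S transcript. The part of the strand split in the lower level of *yrn-1* was not tested beyond the summed counts.

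**Figure D4:**
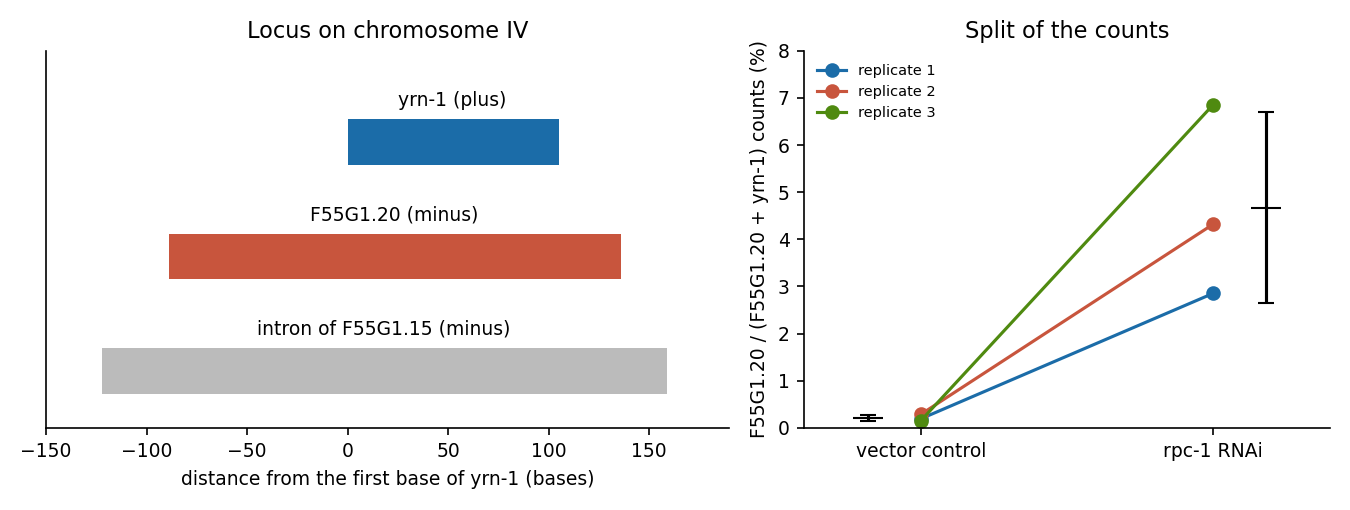
Left, the annotated *yrn-1*, F55G1.20 and the F55G1.15 intron that holds both, by distance in bases from the first base of *yrn-1*. Right, the percentage of the locus counts on F55G1.20 in each sample, with lines joining same-numbered samples and black bars showing the mean and SD of 3 samples, at 0.153% to 0.288% in vector controls and 2.85% to 6.85% in *rpc-1* RNAi.

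The transcripts whose pattern over the 6 samples was most like that of *yrn-1* did not include *rpr-1* or *mrpr-1*. Likeness was the root-mean-square difference of centred log2(normalized count + 1), over 637 transcripts with a mean of at least 100. The nearest was Y102A5D.13 (*sls-1.1*, a copy of the spliced leader RNA that is joined to the front of many worm mRNAs, chromosome V, 17132040 to 17132107), at 0.29 on the log2 scale with Pearson's r of 0.87. Its counts were 4077, 1352 and 3300 in the vector controls and 2180, 1689 and 2157 in the RNAi samples, again with the lowest control value in replicate 2.

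The snRNA M163.13 (chromosome X, 14476867 to 14476946) followed at 0.29, with an r of 0.86. The ncRNA Y22D7AL.17 (chromosome III, 1604580 to 1604664) was at 0.33, the snoRNA ZK185.9 (chromosome IV, 4538702 to 4538916) at 0.34 and the ncRNA CD4.17 (chromosome V, 5588079 to 5588177) at 0.34. None of these 5 was called by DESeq2 without the block. The paired DESeq2 fit called 3 of them lower, Y102A5D.13 (adjusted p 3.88e-08), Y22D7AL.17 (adjusted p 0.00841) and CD4.17 (adjusted p 0.00142). It called 14.9% of all transcripts tested lower. The 5 were chosen for a pattern like that of *yrn-1* in these same samples, so their calls are no separate evidence. By the same likeness measure the 7SL transcripts *srpr-2.1* and *srpr-2.2* ranked 17 and 35, *rpr-1* ranked 153 and *mrpr-1* 422. The other 7SL transcript, *srpr-1.2*, ranked 244, and its log2 fold change was 0.51 in DESeq2 without the block. The 3 7SL transcripts thus differed in their likeness to *yrn-1*. The points share libraries and size factors, so these likenesses are descriptions of 6 samples only.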

How the data were processed

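The authors selected and demethylated RNAs under 200 nucleotides, trimmed the reads with Cutadapt, assigned them with Salmon to a decoy-aware index of WBcel235 RNAs, and deposited estimated counts of transcripts shorter than 300 bases. All values were whole numbers, so rounding changed none. Salmon divides reads between similar transcripts. Of 2526 transcripts, 2506 matched Ensembl release 115 (20 did not).

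The titles of the samples, wt or rpc with a number, gave the groups and the replicate numbers. The wt samples were taken as the vector controls that the study describes, and the rpc samples as its *rpc-1* RNAi worms. The main test was the Wald test of DESeq2 1.42.0 in R 4.3.3 on the whole table at 10% FDR, with group as the only term, as a reading of the study's stated workflow. edgeR 4.0.16 (quasi-likelihood, TMM), other size factors, other filters, the replicate block and leaving out each sample were alternatives. Same-numbered samples correlated at 0.55, 0.20 and 0.40, each over 0.1, and were taken as pairs on that ground. Vector control replicate 3 and *rpc-1* RNAi replicate 2 also passed 0.1, at 0.14, near the 0.20 of pair 2. Other combinations of unlike number ran from -0.41 to 0.02. The labels state no pairing beyond the numbers, so the pairs of the block fits rest on these same data. Levels and ratios were compared by exact permutation with Python 3.11.15. The scripts were tested on simulated data.

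*yrn-1*, the comparison classes and the tests were chosen with earlier results of these data known. Named beside *yrn-1* were *rpr-1*, *mrpr-1*, listed neighbours within 10000 bases and the 5 transcripts of most similar pattern. A search for transcripts of similar sequence was not run. All transcripts with an *srpr* symbol were counted as 7SL.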

Additional observations from a re-analysis of the deposited data

How the results depend on the processing

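The log2 fold change of *yrn-1* was negative in all fits tried, from -1.03 to -0.61 when one sample was left out, and no fit without the replicate block called it. The paired DESeq2 fits did: -0.82 with all pairs, -0.75 with F55G1.20 counts added, and -0.80, -0.81 and -0.91 without pair 1, 2 or 3 (the last 4 chosen after seeing the data). Size factors from snoRNAs, also chosen afterwards, moved the median of 817 transcripts from -0.08 to -0.47 and *yrn-1* from -0.82 to -1.30. Relative to that median *yrn-1* was at -0.74 and -0.83, and with total-count factors at -0.77. The ratio to 5.8S rRNA changed sign when one sample was left out, from -1.19 to 0.13 on the log2 scale, the positive value being that without vector control replicate 1, and the cause was not tested.

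The 0 calls among the 11 Y, RNase P, RNase MRP, 7SL and 5S transcripts became 3 with the replicate block. They became 1 with each of total-count size factors, factors from non-Pol III transcripts, a mean count of at least 10, and edgeR with the block (chosen afterwards). They ran from 0 to 2 with one sample left out, and reached 2 without vector control replicate 2. The paired DESeq2 fit without pair 2, chosen afterwards, called the 7SL transcript *srpr-1.2* higher (log2 fold change 0.98, DESeq2 adjusted p 0.00149). Those without pair 1 or pair 3 called no 7SL transcript. The 26 lower tRNAs became 17 in edgeR and 48 with the block, and ran from 26 to 44 with one sample left out, 44 without *rpc-1* RNAi replicate 1. The 9 higher tRNAs became 15 with total-count factors, 18 with the block and 14 in edgeR with the block, and ran from 8 to 13. The rise of F55G1.20 passed the threshold in all 17 alternatives. These all used the same assigned counts, so they cannot test how reads were assigned by strand. With 3 samples a group no permutation test can give a p below 0.10.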
